A study of Homo sapiens with 3 samples.

Results

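Pyrvinium is an old anthelmintic dye that enters mitochondria, and the comparison described here is that of 100 nM pyrvinium with DMSO, its vehicle, after 6 h in Molm13 cells. It covered the genes with moderate or high expression, chosen by the rule that a gene had 200 or more raw counts in both libraries. Of 25702 genes listed, 8870 met the rule. Among these, 139 belonged to the amino acid response with the aminoacyl-tRNA synthetases, the heat shock genes with the TRiC chaperonin, or the mitochondrially encoded genes, and were set aside. The other 8731 genes are described by their function, and 82 of the 8870 had no gene symbol.

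Molm13 cells are an established human line of acute myeloid leukemia and carry an internal tandem duplication in the receptor tyrosine kinase FLT3. The cells were grown in RPMI with fetal bovine serum and received DMSO, 50 nM or 100 nM pyrvinium for 6 h, and 1 poly(A) RNA library was sequenced per condition. The counts summed to between 22677038 and 24075123 per library. With 1 library a side no difference has a replicate check, none was tested against biological spread, and the intervals given cover counting error only. In bulk RNA, fewer cells of a kind and less RNA per cell cannot be told apart. All 11 AML and monocytic markers examined had counts, which summed to 30606 in DMSO and 35005 at 100 nM. They were uneven, with 7607 and 7768 counts for LYZ. ITGAM, with 58 and 62 counts, and CSF1R, with 119 and 127, were below the count limit for a measured gene. Without FLT3, which is described further on, the other 10 AML and monocytic markers summed to 24302 and 23824 counts. The T cell, B cell, erythroid, epithelial and fibroblast markers summed to between 0 and 26 counts in each of these libraries.

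Cells commit to division late in G1, when cyclin E with CDK2 and the E2F factors switch on the genes that copy DNA, and mitotic genes follow later in the cycle. In the endoplasmic reticulum (ER), chaperones fold secreted and membrane proteins, and the ATF6 and XBP1 factors can raise chaperone genes through a promoter element called the ER stress element. Leukemic myeloid cells also carry growth factor receptors, integrins and granule proteases that mark their stage of maturation.

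A gene was said to rise or fall when its scaled count was at least 1.5-fold higher or lower at 100 nM. Among the 8731 genes, 136 rose (1.56%) and 94 fell (1.08%), and the other 8501 stayed below 1.5-fold in either direction. At least 2-fold higher were 12 genes (0.137%), and at least 2-fold lower were 3 (0.0344%). The median log2 fold change was -0.02, the quartiles were -0.16 and 0.13, and 54.0% of genes were lower. With the genes set aside included, 1.84% of 8870 genes rose and 1.2% fell. Among genes with 200 to 500 counts in the lower library 3.41% rose and 2.33% fell, and among those with 2000 or more 0.563% rose and 0.161% fell. The genes that rose had a median length of 3505 bp, those that fell 2520 bp, and all measured genes 3046 bp. This length covers all exons counted for a gene and is not that of a single transcript. The part of this length or of the count in these shares was not tested.

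**Figure D1:**
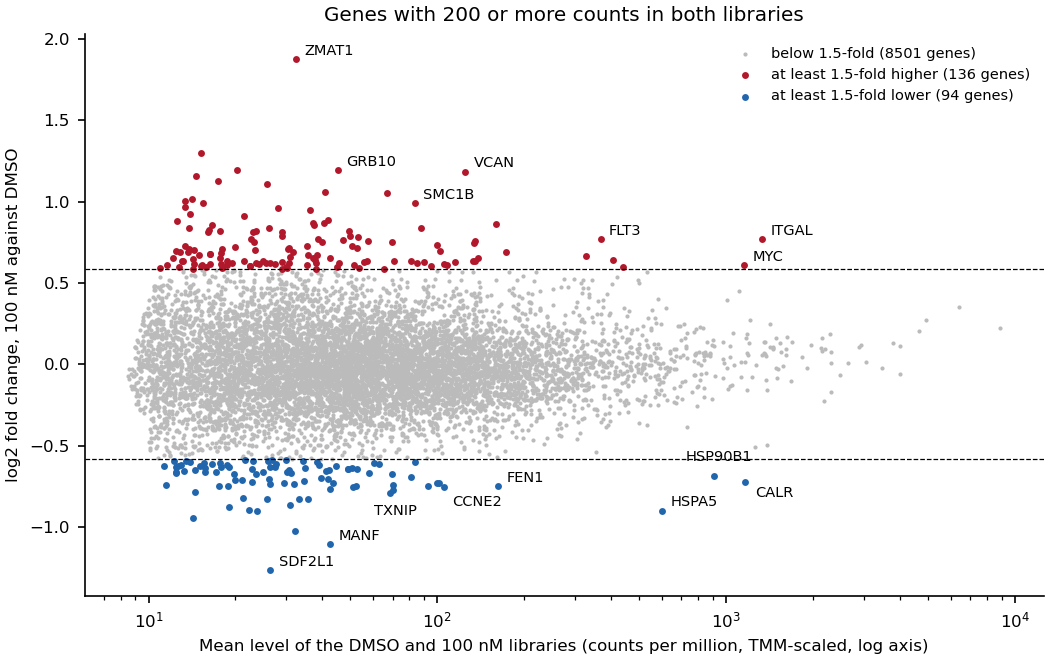
Log2 fold change of 100 nM against DMSO (y axis) plotted over the mean level of both libraries in CPM (log x axis) for the 8731 genes; each point is a gene and dashed lines mark 1.5-fold. The median level was 29.5 CPM for the 136 genes that rose, 27.5 CPM for the 94 that fell and 49.8 CPM for all, while ITGAL, MYC, CALR, HSP90B1 and HSPA5 are at the right.

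The largest rise was that of ZMAT1, a zinc finger protein of the matrin type, with 321 counts in DMSO, 713 at 50 nM and 1227 at 100 nM (log2 fold change 1.88, counting interval 1.70 to 2.06). It lies on chromosome X of hg19 from 101137260 to 101187039. GRB10, an adaptor that dampens insulin receptor signaling, had 636, 1111 and 1515 counts (log2 fold change 1.19). The matrix proteoglycan VCAN had 1768, 3026 and 4183 counts (1.19, interval 1.10 to 1.27). For these 3 genes, picked by their change at 100 nM, the 50 nM library lay between DMSO and 100 nM. This order was not tested, since both doses were compared with the same DMSO library. Rises of at least 0.97 were also measured for Entrez 645460, ERMAP, METAP1D, HEXD, TUBE1, XAF1, PAN2, KRCC1, PGAP3, ZCWPW1, SMC1B and FAM149B1. They encode, among others, a mitochondrial methionine aminopeptidase (METAP1D, 1.16), the centriolar epsilon-tubulin (TUBE1, 1.11) and a subunit of a poly(A)-removing complex (PAN2, 1.05). PAN2 was the 1 rise among 40 measured genes of RNA decay (2.5%, against 1.56% of all genes). SMC1B, the cohesin subunit of meiotic cells, had 1295, 1891 and 2676 counts (0.99), and ZCWPW1, a histone reader of meiosis, 240, 372 and 497 counts (0.99).

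The largest falls were those of SDF2L1 and MANF, which are described with the ER genes. TUBA4A, an alpha-tubulin, had 1002, 650 and 511 counts in the DMSO, 50 nM and 100 nM libraries (log2 fold change -1.03, interval -1.19 to -0.87). TRIP10, a membrane-bending effector of CDC42, had 436, 267 and 235 counts (-0.95). MLKL, which carries out necroptosis, had 669, 436 and 374 counts (-0.90). Further down were BMP8B, ETV4, PKN3, THRA, KCTD12, PAQR4, CRYZ and LIMK1, with log2 fold changes between -0.90 and -0.78. TXNIP, an arrestin that restrains glucose uptake, had 2017 counts in DMSO, 982 in the 50 nM and 1214 in the 100 nM library (-0.79 at the higher dose). Scaled to library size these were 87.0, 43.4 and 50.4 CPM, so that it was lowest in the 50 nM library. It was the 1 gene that fell of 6 measured genes of MondoA glucose sensing and of 16 FOXO and glucocorticoid targets. These shares were 16.7% and 6.25%, against 1.08% of all genes.

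**Figure D2:**
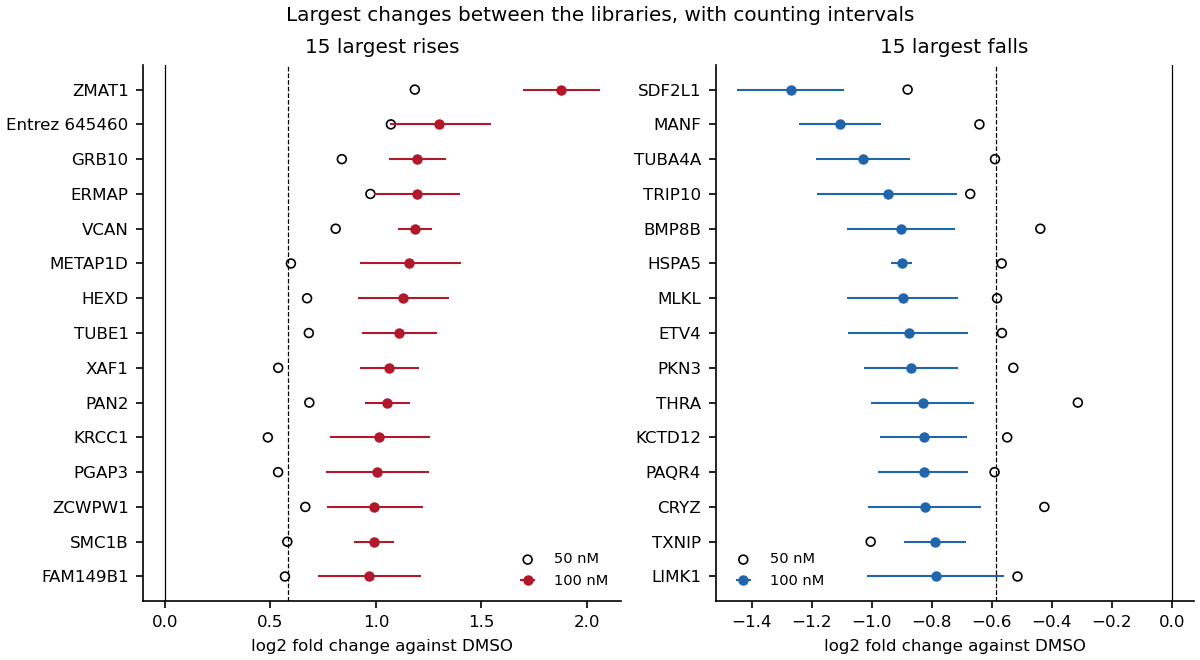
Log2 fold change against DMSO (x axis) of the 15 largest rises (left) and 15 largest falls (right); filled points are 100 nM with 95% counting intervals, open circles are 50 nM, and dashed lines mark 1.5-fold. The 50 nM value of TXNIP lies further from 0 than its 100 nM value, and the intervals of ZMAT1, Entrez 645460, GRB10, VCAN and SDF2L1 lie beyond 2-fold.

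Genes of the ER chaperones and of ER-associated degradation were lower as a group, and none of them rose. Of 56 measured, 6 fell (10.7%, against 1.08% of all genes) and 41 were lower (73.2%, against 54.0%). The median log2 fold change was -0.14, against -0.02 over all genes. SDF2L1, a cofactor that keeps unfolded proteins soluble, had 864 counts in DMSO, 458 at 50 nM and 373 at 100 nM (-1.27, interval -1.45 to -1.09). MANF, a secreted ER stress factor that binds BiP, had 1347, 843 and 651 counts (-1.11, interval -1.24 to -0.97). The 100 nM library was the lowest of the 3 for both. The calcium-binding lectin chaperone CALR had 33552, 25031 and 21108 counts (-0.73), and CRELD2, an ER protein induced by unfolded proteins, 487, 324 and 320 counts (-0.66). HSPA5, which encodes the chaperone BiP (-0.90), and HSP90B1, which encodes GRP94 (-0.68), were the other members that fell. The study names both among lower heat shock proteins, HSP90B1 with a p-value above its limit. Here both were kept with the ER genes. Several oxidoreductases and cochaperones stayed below 1.5-fold, with -0.55 for PDIA4, -0.53 for HYOU1 and -0.52 for DNAJB11. The other direction was seen in EDEM1, which hands misfolded glycoproteins to degradation (0.52), and in HSPA13 (0.42). The stress sensors ATF6 and EIF2AK3 had log2 fold changes of -0.02 and 0.18, and XBP1, a transcription factor made active downstream of another sensor, was at 0.26.

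The promoters of 4 of the 6 genes that fell are shown because they share a rare sequence, which those of SDF2L1 and MANF, the largest falls, did not hold in the window searched. The ER stress element was read as CCAAT, any 9 bases and CCACG, on either strand, in the 250 bases before the start of each gene in RefSeq's promoter table (GRCh38.p14). It was chosen after the falls were seen. It was present in 22 of 27305 promoters (0.0806%), in 13 of the 7128 measured genes with an entry (0.182%), in 4 of 77 genes that fell and in 0 of 106 that rose. Of 49 promoters in the ER list 6 held it (12.2%), the others being CANX (-0.13) and XBP1, which did not fall. The stretches read 5′ to 3′ along each gene, with the element or its reverse complement in capitals.
HSPA5 (chr9:125241366-125241434, minus strand): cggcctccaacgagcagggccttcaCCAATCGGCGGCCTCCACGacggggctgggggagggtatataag
HSP90B1 (chr12:103930296-103930364, plus strand): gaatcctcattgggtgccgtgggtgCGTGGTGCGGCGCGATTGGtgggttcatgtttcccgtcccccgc
CALR (chr19:12938359-12938427, plus strand): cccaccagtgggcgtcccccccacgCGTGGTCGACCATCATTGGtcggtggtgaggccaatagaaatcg
CRELD2 (chr22:49918529-49918597, plus strand): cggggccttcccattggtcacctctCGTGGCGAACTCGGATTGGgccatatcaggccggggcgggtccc
The element begins 66 bases before the start in HSPA5, 89 in HSP90B1, 225 in CALR and 80 in CRELD2. HSP90B1 holds 2 matches, of which the one nearer the start is shown. A match is a description of the letters and not of a bound factor. CCAAT on its own, which is part of this element, was present in 44.2% of the promoters of genes that fell, 30.2% of those that rose, 36.1% of those measured and 33.0% of all promoters.

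Several regulators of the entry into S phase fell. Of 28 measured G1 cyclins, CDKs, inhibitors and E2F factors, 6 fell (21.4%, against 1.08% of all genes) and none rose, with a median log2 fold change of -0.21. CCNE2 and CCNE1, which encode the E cyclins, had 3068, 2086 and 1890 counts and 852, 575 and 533 counts in the same order of libraries. Their log2 fold changes were -0.76 and -0.73. Their partner kinase CDK2 had 1197, 862 and 792 counts (-0.65). The phosphatase that activates CDK2, CDC25A, had 2327, 1844 and 1495 counts (-0.70, interval -0.79 to -0.60). Among the E2F factors, E2F2 had 740, 565 and 496 counts (-0.63) and the repressor E2F7 639, 455 and 440 counts (-0.59). E2F8 (-0.58), SKP2 (-0.56) and E2F1 (-0.40) stayed below 1.5-fold. The D-cyclin side of the same list moved little, with CCND2 at 0.01, CCND3 at -0.19 and CDK4 at -0.14, while CDK6 was at 0.31. The CDK inhibitors were at 0.44 for CDKN1A, 0.20 for CDKN2C and -0.01 for CDKN1B.

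DNA replication genes were lower almost throughout, mostly by less than 1.5-fold. Of 52 measured, 49 were lower (94.2%, against 54.0% of all genes), and the median was -0.23. The counting interval lay below 0 for 44 of the 52, and for 32.3% of all genes. Past 1.5-fold, 3 fell (5.77%, against 1.08% of all genes). FEN1, the flap endonuclease of Okazaki fragments, had 4727, 3513 and 2924 counts (-0.75). MCM10, which helps to activate the replicative helicase, had 2923, 2111 and 1831 counts (-0.73), and the histone chaperone CHAF1B 1136, 823 and 727 counts (-0.70). TIPIN (-0.58), CDC6 (-0.52) and the helicase subunit MCM4 (-0.51) came next. The other subunits of the MCM2 to MCM7 helicase were closer to 0, from -0.18 for MCM7 to -0.02 for MCM6. The 3 replication genes that were not lower were CDC7 (0.08), its activator DBF4 (0.04) and PRIM1 (0.00).

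In the list of mitosis and spindle genes no member was past 1.5-fold. Of 61 measured, 0 rose and 0 fell, 39 were lower (63.9%, against 54.0% of all genes), and the median was -0.04. PSRC1 (-0.51) and CENPM (-0.40) were the furthest from 0. Outside this list, the mitotic helicase gene ERCC6L had 761, 600 and 474 counts and fell (-0.74), as did CENPX, which acts at centromeres, with 1201, 856 and 766 counts (-0.71). Both were picked once their values were known. The difference between the mitotic and the replication genes was not tested, since each list was seen in the same pair of libraries.

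**Figure D3:**
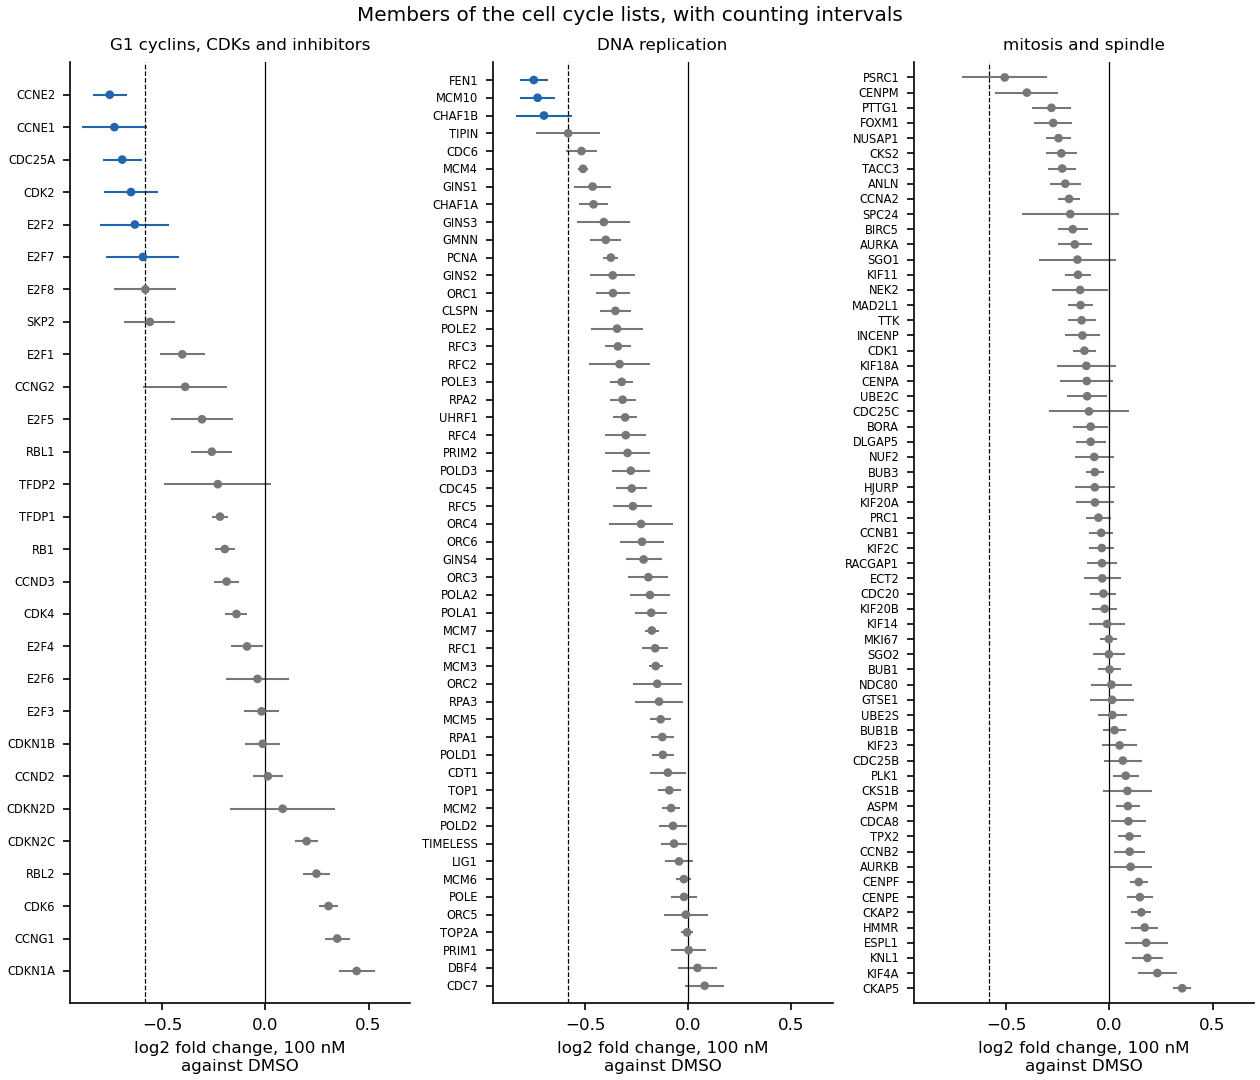
Log2 fold change of 100 nM against DMSO (x axis) for each measured member of 3 cell cycle lists (y axis, ordered by value), with 95% counting intervals; blue points fell at least 1.5-fold and the dashed line marks that threshold. The medians were -0.21 for the G1 list, -0.23 for DNA replication and -0.04 for mitosis and spindle.

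E2F elements were also counted in the promoters of the cell cycle lists. The element was read as TTTCCCGC, TTTGGCGC, TTTCGCGC or TTTGCCGC on either strand, and was added after the values were seen. It was present in 13 of 46 DNA replication promoters (28.3%), 6 of 23 G1 promoters (26.1%), 2 of 51 mitotic promoters (3.92%), 5.02% of the promoters of measured genes and 2.79% of all promoters. Among all genes that fell it was present in 4 of 77 promoters (5.19%). None of the 3 replication genes that fell (FEN1, MCM10 and CHAF1B) held it, nor did CCNE1 or E2F7, while CCNE2 and CDK2 are not in the promoter table. CDC25A and E2F2 are the G1 genes that fell and held it, and are shown for that reason with the element in capitals (RefSeq, GRCh38.p14).
CDC25A (chr3:48188429-48188486, minus strand): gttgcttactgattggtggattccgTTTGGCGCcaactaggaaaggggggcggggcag
E2F2 (chr1:23531243-23531300, minus strand): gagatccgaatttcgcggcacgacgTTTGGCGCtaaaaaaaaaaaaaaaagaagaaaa
It begins 44 bases before the start of CDC25A and 42 before that of E2F2.

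Few of the myeloid surface and granule genes were past 1.5-fold. Of 35 measured surface antigens and cytokine receptors, 3 rose (8.57%, against 1.56% of all genes) and 1 fell (2.86%, against 1.08%). Their median was -0.02. FLT3, the receptor whose duplication drives these cells, had 6304 counts with DMSO, 9012 with 50 nM and 11181 with 100 nM (log2 fold change 0.77, interval 0.73 to 0.81). It lies on chromosome 13 of hg19 from 28577411 to 28674729. P2RX1, an ATP-gated channel, had 344, 541 and 675 counts (0.91), and the sphingosine-1-phosphate receptor S1PR3 300, 377 and 478 counts (0.61). CSF2RB, the shared beta chain of the IL-3 and GM-CSF receptors, fell from 775 counts to 508 and 526 (-0.62). The alpha chains of the same receptors had values of the other sign, 0.43 for IL3RA and 0.27 for CSF2RA. Of 17 granule proteins, 1 rose (5.88%, against 1.56% of all genes) and 9 were lower (52.9%, against 54.0%). Their median was -0.03. CTSG, the protease cathepsin G of azurophil granules, had 848, 1193 and 1522 counts (0.79), and myeloperoxidase (MPO) stayed just below 1.5-fold at 0.57. Neutrophil elastase (ELANE, 0.03), PRTN3 (-0.14) and lysozyme (LYZ, -0.03) were near 0. TRAC, the constant chain gene of the T cell receptor, rose (265, 345 and 414 counts, 0.59, but 0.58 and below 1.5-fold with 5 counts added), while the 4 T cell markers examined summed to 26 counts in DMSO and 14 at 100 nM. It was picked once its values were known.

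Adhesion and cytoskeleton genes held 52 measured members, of which 1 rose (1.92%, against 1.56% of all genes) and 1 fell, TUBA4A (1.92%, against 1.08%). ITGAL, the alpha chain of the integrin LFA-1, was among the most abundant genes that rose, with 22811, 31895 and 40424 counts (0.77, interval 0.75 to 0.79). Myeloid transcription factors had 16 members measured, with 0 past 1.5-fold, and the furthest from 0 were KLF6 (0.46) and SPI1 (-0.32). In the list of HOXA genes and genes tied to KMT2A fusions, 19 were measured. Of these, 1 rose (5.26%, against 1.56% of all genes) and 1 fell (5.26%, against 1.08%). There the SUMO protease SENP6 rose (7320, 9287 and 11885 counts, 0.64) and HOXA11 fell (363, 315 and 246 counts, -0.62), while HOXA9 was at -0.24 and MEIS1 at 0.13.

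**Figure D4:**
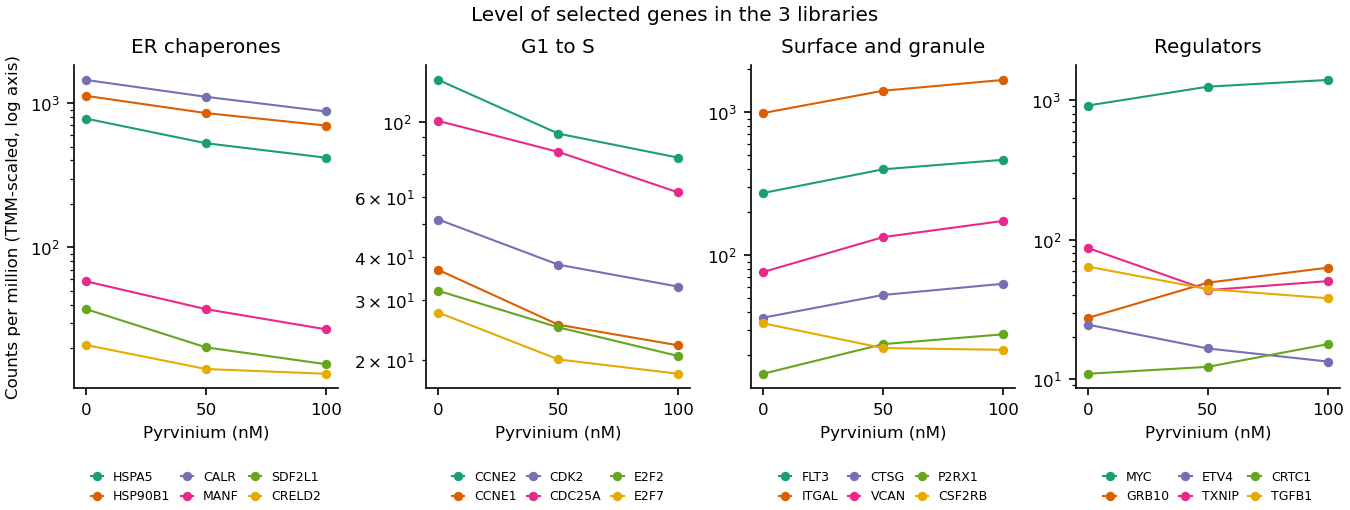
Level in CPM (log y axis) in the DMSO (0 nM), 50 nM and 100 nM libraries (x axis) for genes of 4 groups named in the text; each point is 1 library, so there are no error bars. ER and G1 genes are lowest at 100 nM, FLT3, ITGAL, CTSG, VCAN and P2RX1 are highest there, and TXNIP is lowest at 50 nM.

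Signaling genes changed in both directions. MYC, the growth-promoting transcription factor, had 21175 counts with DMSO, 28215 with 50 nM and 33596 with 100 nM (0.61, interval 0.58 to 0.63). It was the 1 gene that rose of 9 measured in the MYC network (11.1%, against 1.56% of all genes), with its partner MAX at -0.12. ETV4, an ETS factor induced by ERK signaling, had 569, 375 and 322 counts (-0.88). Of the 24 measured genes of ERK output and the immediate early response, MYC rose and ETV4 fell. Each was 4.17% of the list, against 1.56% and 1.08% of all genes. TGFB1, a growth-inhibiting cytokine, had 1483, 999 and 915 counts (-0.75). It was the 1 member that fell of 22 cytokine, chemokine and NF-kB genes (4.55%, against 1.08% of all genes). TNFAIP3 (0.58) and BIRC2 (0.51) of that list stayed below 1.5-fold. In cAMP signaling, 2 of 27 measured members rose (7.41%, against 1.56% of all genes) and 1 fell (3.7%, against 1.08%). The CREB coactivator CRTC1 rose (253, 277 and 429 counts, 0.70), as did RGS16 (263, 304 and 419 counts, 0.61). The adenylate cyclase gene ADCY3 fell (1493, 1184 and 992 counts, -0.65). The list of STAT5 and PIM output, which also holds the receptor gene FLT3, had 11 genes measured. FLT3 alone rose (9.09%, against 1.56% of all genes), and 8 of the 11 were lower (72.7%, against 54.0%). Their median was -0.05, with PIM1 at -0.18 and CISH at -0.11. None of 23 Wnt pathway genes was past 1.5-fold, with NKD2 at 0.33 and FZD3 at -0.35.

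Interferon-stimulated genes were split. Of 21 measured, 2 rose (9.52%, against 1.56% of all genes), 1 fell (4.76%, against 1.08%), and 14 were lower (66.7%, against 54.0%). XAF1, an antagonist of the apoptosis inhibitor XIAP, had 611, 866 and 1328 counts (1.06). IRF7, the inducer of type I interferons, had 243, 263 and 409 counts (0.69), and the virus-tethering BST2 1096, 824 and 742 counts (-0.62). These 3 genes did not share a direction. IFI16 was at -0.52.

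Cell death genes were mostly near 0. Among 16 BCL2 family genes 1 rose (6.25%, against 1.56% of all genes). This was BBC3, which encodes PUMA, with 413, 510 and 653 counts (0.60, interval 0.42 to 0.79). Of the 16, 10 were lower (62.5%, against 54.0% of all genes), with a median of -0.05. PMAIP1, also a BH3-only gene, was at 0.43, BCL2 at 0.41, MCL1 at -0.23 and BAK1 at -0.57. Of 26 measured p53 targets and death receptor genes, 20 were higher (76.9%, against 46.0% of all genes). Their median was 0.14, but 0 were past 1.5-fold. CDKN1A and MDM4, both at 0.44, were the furthest from 0.

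Sterol synthesis genes were mostly higher. Of 29 measured genes of cholesterol synthesis and uptake, 25 were higher (86.2%, against 46.0% of all genes). The counting interval lay above 0 for 16 of the 29, and for 26.9% of all genes. The median was 0.16, and 1 rose (3.45%, against 1.56% of all genes). HMGCS1, which makes the precursor of mevalonate, had 1812, 2828 and 3050 counts (0.69, interval 0.61 to 0.78). NPC1 was at 0.44, MSMO1 at 0.43 and INSIG1 at 0.38. EBP (-0.40) and NSDHL (-0.29) were lower. Genes of fatty acid and phospholipid synthesis were evenly split, 17 higher and 17 lower of 34, and none was past 1.5-fold, with LPCAT1 at -0.55. CPT1A, which carries fatty acids into mitochondria, fell from 1691 to 1368 and 1153 counts (-0.61). It was the 1 member that fell of 20 fatty acid oxidation genes (5.0%, against 1.08% of all genes).

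Central metabolism held few changes past 1.5-fold. Of 22 glycolysis genes, 16 were lower (72.7%, against 54.0% of all genes), with a median of -0.15. LDHA, which makes lactate, had 37727, 30972 and 27796 counts (-0.50). PGAM4 (-0.51) is a near copy of PGAM1, so its reads are uncertain. Pyruvate carboxylase (PC), which feeds the TCA cycle, was at 0.56, and SUCLG2 at 0.34. Nuclear genes of the respiratory chain had small values of mostly one sign. Of 73 measured, 64 were lower (87.7%, against 54.0% of all genes). The counting interval lay below 0 for 39 of the 73, and for 32.3% of all genes. The median was only -0.09 at 100 nM and -0.01 at 50 nM, and the furthest from 0, NDUFB10, was at -0.43. Mitochondrial ribosomal proteins had a median of -0.10, with 54 of 77 lower (70.1%, against 54.0% of all genes), and MRPS17 at -0.50. The mitochondrial protease OMA1, which senses stress of the inner membrane, was at 0.57. TK2, the thymidine kinase of mitochondria, had 414, 639 and 700 counts and rose (0.70), and the spermine oxidase SMOX had 242, 287 and 412 counts (0.71). TK2 was the 1 gene that rose of 33 in the list of nucleotide synthesis (3.03%, against 1.56% of all genes). SMOX was the 1 that rose of 24 (4.17%) in the list of one-carbon and methyl cycle genes, which also holds this oxidase. None fell in these lists.

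Solute carriers held 143 measured genes, of which 4 rose (2.8%, against 1.56% of all genes) and 3 fell (2.1%, against 1.08%). The zinc carrier SLC39A9 had 2321, 2971 and 4084 counts (0.76) and SLC39A10 1636, 2148 and 2632 counts (0.63), whereas SLC39A1 had 1249, 995 and 842 counts (-0.63). SLC39A7, which releases zinc from the ER, had 959, 776 and 660 counts (-0.60). A wider list of zinc transporters and metallothioneins, made after these values were seen, held 21 measured genes, with a median of -0.16. Of these, 2 rose (9.52%, against 1.56% of all genes) and 3 fell (14.3%, against 1.08%). All 5 measured metallothioneins, which bind zinc and copper, were lower, from -0.77 for MT1X, which fell from 1238 counts to 927 and 755, to -0.35 for MT1G. The other carriers were SLC22A15 (0.64) and SLC35A5 (0.59), which rose, and the lysosomal sialic acid exporter SLC17A5 (-0.63), which fell.

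Calcium release channels of the ER, also listed after their values were seen, had 4 members measured. RYR2, a ryanodine receptor, had 442, 635 and 897 counts (0.96) and the IP3 receptor ITPR1 2499, 3263 and 4097 counts (0.66). The sister receptor ITPR3 had 2053, 1410 and 1249 counts (-0.77), and ITPR2 was at 0.24. Genes of 1 family thus lay on both sides of 0.

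Protein turnover was covered by lists of the proteasome, ubiquitin enzymes, the lysosome and autophagy. Of 49 genes in the proteasome list, 43 were lower (87.8%, against 54.0% of all genes) and none was past 1.5-fold, with a median of -0.15. PSMC3IP (-0.44), a recombination factor that entered the list by its symbol alone, and the activator PSME3 (-0.43) were the furthest from 0. Ubiquitin ligases and conjugating enzymes had 210 members measured, with 4 that rose (1.9%, close to the 1.56% of all genes) and a median of 0.00. These were TRIM66 (0.95), FBXW4 (0.69), KLHL35 (0.63) and FBXW8 (0.63). Of 55 lysosomal genes, 3 fell (5.45%, against 1.08% of all genes), and none rose. The cysteine protease CTSZ had 999, 744 and 631 counts (-0.72), alpha-galactosidase (GLA) 981, 755 and 656 counts (-0.64), and the Batten disease gene CLN3 743, 634 and 514 counts (-0.59, but -0.58 and below 1.5-fold with 5 counts added). In autophagy, with 38 members measured, GABARAP (-0.48) and ATG16L2 (0.43) were the furthest from 0.

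RNA and chromatin genes held a few changes of well-counted members. CHD2, a chromatin remodeler, had 2319, 3106 and 4042 counts (0.74). It was the 1 gene that rose of 67 chromatin modifiers (1.49%, against 1.56% of all genes). The list of SR proteins and splicing kinases had no member past 1.5-fold. CIRBP, which is in this list but is not an SR protein, was at 0.57, and SRSF6 was at 0.54. Of 22 snoRNA host genes, 18 were higher (81.8%, against 46.0% of all genes), with a median of 0.17, and SNHG8 was at 0.53. Cytosolic ribosomal protein genes were 59 of 79 higher (74.7%, against 46.0% of all genes) with a median of 0.06. Their range ran from -0.21 for RPS28 to 0.31 for RPL12. Of 89 nucleolar genes the furthest from 0 was UBTF (-0.46), a factor of ribosomal RNA transcription, and of 50 translation factors EIF4A2 (0.52). Of 222 ZNF zinc finger genes, 62.6% were higher, against 46.0% of all genes. Among them 2 rose (0.901%, against 1.56% of all genes), ZNF181 (0.62) and ZNF121 (0.60). ZNF232 fell (-0.66), which was 0.45% of the list, against 1.08% of all genes.

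Of the 52 functional lists, 26 had a member past 1.5-fold and 26 had none. The remaining lists with none, whose furthest members stayed below 1.5-fold, were the pentose phosphate pathway (PGLS, 0.39), mTORC1 control (NPRL3, 0.39), the circadian clock (BMAL2, -0.45), MHC genes (RFX5, 0.34), NRF2 targets (SOD2, -0.38), iron and heme genes (HMOX2, -0.47), hypoxia-inducible genes (LDHA), histones (MACROH2A1, 0.23) and glutathione and sulfur genes outside the amino acid response (MPST, -0.31). The lists covered 2140 of the 8731 genes, with 27 of the 136 that rose and 31 of the 94 that fell, so that 109 rises and 63 falls lay outside them.

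Some values are uncertain because reads can be shared. Of the 230 genes that rose or fell, 27 overlap an exon of another counted gene on the opposite strand. The same held for 715 of all 8731 genes. Whether the counting used strand is not given in the sources used here. Of the 27, those named in the text are ERMAP, HEXD, TUBA4A, BMP8B, PKN3, THRA, PAQR4, CRYZ, CCNE2, ADCY3, ZNF232 and P2RY11. PAN2 overlaps CNPY2 on the same strand.

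At the count limit itself, the genes just inside were DTNB (228 counts in DMSO and 200 at 100 nM), MRNIP (211 and 200) and STAG3L4 (200 and 274). Just outside were PTGIR (231 and 199), RIBC2 (322 and 199) and RHBDD2 (199 and 207), and RIBC2 would have fallen, at -0.75.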

How the data were processed

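RNA of Molm13 cells was sequenced by the authors as 75 bp paired-end, strand-specific mRNA libraries, 1 per condition. The authors aligned reads to hg19 (GRCh37) with Rsubread and deposited raw counts per gene as whole numbers, without normalization. The authors also deposited an EBSeq table with fold changes and posterior probabilities, which was not used. Symbols were matched by Entrez identifier (23696 of 25702), coordinates are those of the deposited counts, and RefSeq promoters are on GRCh38.p14.

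Library sizes were scaled by TMM (edgeR 4.0.16, R 4.3.3) over genes that reached 10 counts in any library. Log2 fold changes had 0.5 counts added. The 95% intervals are Clopper-Pearson intervals of the count ratio (scipy 1.17.1) and cover counting error only, with a median half-width of 0.12 on the log2 scale. Overlapping genes were recorded where they held at least 20 counts and 5% of the gene's own. The procedure was tested on simulated counts with counting error only and planted changes of at least 2-fold. That test does not cover variation between replicates.

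The genes named were the 15 largest rises and falls outside the lists set aside. Each of 52 functional lists added up to 4 members past 1.5-fold in each direction, or the 2 furthest from 0. Other genes named, and 10 further lists, were chosen after their values were seen, and some of these results are not reported here. The members and lists were chosen with earlier results of these data known. As alternatives, libraries were scaled by total counts, by DESeq2 1.42.0 or by TMM after removal of mitochondrially encoded genes. Other count minimums and folds, 5 counts added, and an assumed variation in edgeR's exact test were also tried.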

Additional observations from a re-analysis of the deposited data

How the results depend on the processing

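With 136 genes higher and 94 lower at 1.5-fold, the counts stayed within 1.5 times of these under total counts, DESeq2 size factors, TMM after removal of mitochondrially encoded genes, 5 counts added, 200 counts in at least 1 of the libraries and the lists set aside kept in. They moved further with the count minimum and the fold. A minimum of 100 counts in both libraries gave 206 higher, 500 in both gave 70 higher and 49 lower, and 10 counts in at least 1 of the libraries gave 931 and 516. At 2-fold 12 were higher and 3 lower, and with the whole counting interval beyond 1.5-fold 56 and 28. In edgeR's exact test with the variation between replicates assumed to be 0.1, 49 and 25 passed an adjusted p limit of 0.05. With 0.2 there were 0 and 0, and 28 and 12 at an unadjusted p under 0.05. The true variation between replicates is not known from these libraries. Of the 230 genes, 8 dropped below 1.5-fold with 5 counts added (among those described, TRAC at 0.58 and CLN3 at -0.58), 1 with total counts, and 0 with DESeq2 size factors or with TMM after removal of mitochondrially encoded genes. With other genes counted, 5 list medians moved by more than their counting error. At a minimum of 500 counts they were -0.06 in place of 0.45 for calcium release channels, 0.04 in place of -0.05 for myeloid transcription factors and -0.27 in place of -0.17 for tubulins. At 10 counts they were 0.20 in place of -0.08 for histones and -0.27 for tubulins. The scalings moved the median of all genes by at most 0.0014 (log2). No paired analysis was possible because each condition has 1 library.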

Other observations

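Further families were listed after their values were seen, and their counts are descriptions only. In the synthesis and remodeling of GPI anchors, which fix proteins to the cell surface, 3 of 25 measured genes rose, 0 fell and the median was -0.01. PGAP3 had 206, 292 and 430 counts in the DMSO, 50 nM and 100 nM libraries (log2 fold change between 0.76 and 1.25 by its counting interval), PIGW 233, 292 and 402 (0.73) and PIGP 227, 309 and 382 (0.69), while PIGA was at -0.48. Of 8 purinergic receptors, P2RX1 and P2RY11 (315, 416 and 537 counts, 0.71) rose, of which P2RY11 overlaps EIF3G on the opposite strand, P2RX7 was at 0.56 and P2RX5 at -0.48.

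Among 7 genes of coenzyme A synthesis 1 rose (14.3%, against 1.56% of all genes), PPCS with 639, 895 and 1058 counts (0.67). The others lay between -0.18 and 0.08.

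Related genes could differ in direction. Of 14 cohesin genes, 1 rose (7.14%, against 1.56% of all genes) and 1 fell (7.14%, against 1.08%). SMC1B rose (0.99) and the acetyltransferase gene ESCO2 fell from 2341 counts to 1705 and 1608 (-0.60). Of 11 tubulins, 9 were lower (81.8%, against 54.0% of all genes), with a median of -0.17. Among them TUBE1 rose and TUBA4A fell (9.09% each, against 1.56% and 1.08% of all genes). All 10 measured members of the GOLGA8 family were higher, with a median of 0.34, but the copies are so alike that their reads may have been divided among them. A further 317 genes outside the lists set aside had 200 counts in 1 of the libraries only. Of these 65 were at least 1.5-fold higher and 39 lower, and each met the limit only through the library in which its count was higher.

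Promoters held the other elements searched at differing rates. The E-box CACGTG was present in 15.1% of the promoters of genes that rose, 10.4% of those that fell, 9.97% of those measured and 6.49% of all promoters. TGACNNNGC, the core of the antioxidant element, was present in 10.4%, 20.8% and 12.7% in the same order and in 3013 of all 27305 promoters. The C/EBP-ATF element TTGCATCA was present in 1 of 106 promoters of genes that rose, that of SYTL1, in 0 of 77 that fell, in 0.238% of those measured and in 0.82% of all promoters. The sterol element TCACNCCAC was present in 0.943%, 2.6%, 0.842% and 0.875% in the order given for the E-box. Each was read on both strands in the 250 bases before the start.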
